A study of Mus musculus with 4 samples.

Results

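Cytosolic ribosomal proteins are the proteins that, with ribosomal RNA, form the large and small subunits of the ribosome. Their transcripts were followed here in freshly isolated small-intestinal cells of mice, on 1-colour microarrays. IKKb(EE)IEC mice, in which the labels name an IKKb(EE) allele of intestinal epithelial cells (background: a constantly active form of the kinase IKKb, which acts through NF-kB), were compared with wild-type (WT) littermates. There were 2 biological replicates of either genotype, each hybridised to its own array, and neither the ages nor the number of mice behind a sample are given in the sources used here. The members are the non-control probes whose gene name in the scanner files begins with Rpl or Rps and a digit, or is Rplp0, Rplp1, Rplp2 or Rpsa, leaving out the Rps6k kinases. This rule uses names only and took 138 of 41174 probes, for 83 of 27745 listed gene names. Of these, 126 probes of 82 genes stood well above background on 2 or more arrays and entered the comparison. The 12 others did so on no array, and Rpl3l, a paralog known from muscle, was measured by such a probe alone. The rule also takes Rps19bp1, which binds a ribosomal protein and is not one itself (2 probes), and 7 probes of the paralogs Rpl22l1, Rpl36al, Rpl3l, Rpl7l1 and Rps27l.

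Ribosomal protein genes are transcribed at high rates in nearly every cell, and their products are needed in fixed proportions. Most of their messenger RNAs begin with a 5' terminal oligopyrimidine (TOP) tract, a C followed by a run of C and T, through which mTOR and the RNA-binding protein Larp1 control their translation. The amount of such a messenger RNA on an array therefore does not show how much of it is translated. In the intestine, dividing crypt cells are known for high ribosome production.

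The stretch around the annotated start is shown for members that recur below, because a pyrimidine run there is common among these genes and is not used by their names. The windows of 12 such members were read: 7 held a run in the stretch shown and 5 (Rpl37a, Rpl41, Rplp0, Rps13 and Rpsa) held none, of which Rpl37a and Rpl41 are given last. Each line gives 55 bases of the RefSeq promoter table (GRCm38.p6), with the annotated start after base 30 and the longest run of at least 7 C or T beginning with C in capitals.
Rps25 (chr9:44407684-44407738, plus strand): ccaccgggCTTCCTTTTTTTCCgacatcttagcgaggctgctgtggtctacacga
Rpl38 (chr11:114668550-114668604, plus strand): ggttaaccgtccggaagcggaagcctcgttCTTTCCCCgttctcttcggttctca
Rpl22l1 (chr3:28805478-28805532, plus strand): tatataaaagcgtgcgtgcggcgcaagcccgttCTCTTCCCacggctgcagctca
Rps12 (chr10:23787185-23787239, minus strand): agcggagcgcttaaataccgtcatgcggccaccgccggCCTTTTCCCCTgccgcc
Rps18 (chr17:33955641-33955695, minus strand): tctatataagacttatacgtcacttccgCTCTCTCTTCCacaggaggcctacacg
Rps6 (chr4:86857343-86857397, minus strand): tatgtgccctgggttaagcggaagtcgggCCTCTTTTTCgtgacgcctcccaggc
Rplp2 (chr7:141447621-141447675, plus strand): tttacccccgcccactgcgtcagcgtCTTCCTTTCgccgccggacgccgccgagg
Rpl37a (chr1:72711230-72711284, plus strand): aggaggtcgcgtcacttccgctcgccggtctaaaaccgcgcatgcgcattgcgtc
Rpl41 (chr10:128549144-128549198, minus strand): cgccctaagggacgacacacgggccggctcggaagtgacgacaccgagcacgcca
The run of Rps25 ended before the annotated start and that of Rps12 began at base 9 of the transcript, while those of the other 5 began between 4 bases before the start and base 4 of the transcript.
In this table, 63 of the 83 genes were found, with 75 windows. A run of this kind between 30 bases before and 50 bases after the start was present in 72.0% of these windows, against 33.4% of all 32851 windows. The letters CTCTTTC, read in the direction of the gene in the same stretch, were in 17.3% of the members' windows and in 1.08% of all windows. CCGGAAG, the core of sites of the ETS family, was in 34.7% and 8.86% of them on either strand over the whole window. The NF-kB consensus, searched on both strands over 250 bases before and 50 after the start, was in 10.7% of the members' windows and in 8.46% of all windows. The members with it were Rpl23, Rpl35a, Rpl3l, Rpl6, Rps19 and Rps23. A match is a description of letters and not a binding site.

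All 4 arrays lay on 1 slide and in 1 scan, with IKKb(EE)IEC at positions 3 and 4 and WT at positions 1 and 2, so position and genotype cannot be told apart. The 75th percentile of the signal was 94.6 and 107.8 in IKKb(EE)IEC, against 60.2 and 66.1 in WT. Over all probes tested, the arrays correlated at 0.994 within IKKb(EE)IEC, 0.977 within WT and 0.936 to 0.946 between genotypes. Ikbkb, the gene of the kinase (probe at chr8:24125327-24125386, mm8), had normalised log2 levels of 0.33 and 0.34 in IKKb(EE)IEC, against -0.72 and -0.27 in WT (log2 fold change 0.83 ± 0.21 (SE), limma adjusted p = 0.0568). All 18 epithelial marker probes were well above background on every array, and 1 was called higher and 4 lower. Their log2 summed levels were 12.91 and 12.95 in IKKb(EE)IEC and 13.79 and 13.90 in WT. Single markers went both ways: the brighter Fabp2 probe had 11.33 and 11.40 in IKKb(EE)IEC, against 12.67 and 13.19 in WT, and Anpep had 10.36 and 10.32 in IKKb(EE)IEC, against 9.29 and 9.19 in WT. Markers of other cells differed too: 6 of 6 Paneth cell probes were called lower and 4 of 7 macrophage probes higher (limma). For crypt and division probes, 0 of 14 were called. Of all probes tested, 8.17% were called higher and 5.83% lower. The macrophage count includes probes that passed the signal filter through the IKKb(EE)IEC arrays alone. Measured on every array, C1qb had 2.22 and 2.12 in IKKb(EE)IEC, against 2.37 and 2.27 in WT. A Csf1r probe, also measured on every array, had 0.56 and 0.04 in IKKb(EE)IEC, against -0.42 and 0.32 in WT. The 4 liver probes were well above background on WT replicate 2 alone (summed level 3.44, against -1.84 to 0.17 on the other 3 arrays). Of 6 pancreas probes, Clps alone was above background, with 3.94 and 4.33 in IKKb(EE)IEC, against 8.78 and 7.52 in WT (called lower), and the other 5 were well above background on no array. The part of these cell differences in the values below was not tested, and in whole samples fewer cells of a type and less RNA per cell cannot be told apart.

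No ribosomal protein transcript was called different between the genotypes. With log2 signals shifted by each array's 75th percentile, 0 of 126 member probes passed an adjusted p of 0.05 in limma, where 14.0% of the 16394 probes tested did (8.17% higher and 5.83% lower). At an unadjusted p below 0.05, 16 members (12.7%) were below it, all on the lower side, against 36.9% of all probes and 19.4% on the lower side. The fold changes were small, and 119 of 126 were below 0, against 9068 of all 16394 probes tested. Their median was -0.30 on the log2 scale, against -0.08 over all probes tested. The median standard error was 0.24, which gives a 95% interval of about ± 0.60 around a typical member. For 78 of the 126 probes this interval lay within a 2-fold change in either direction, and for the others it reached past that size. In simulated data of the same size, 74% of changes of 2 log2 units were recovered and 3% of changes of 1 unit. Only 200 simulated probes were changed, where 14.0% of probes passed here, so an adjusted p of 0.05 was harder to reach there. These shares therefore do not measure the power for the members. In the real fit some changes below 1 unit did pass, such as that of Ncl (0.92 ± 0.17, limma adjusted p = 0.0272).

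Whether the members as a group lay below or above WT depended on the scale. The negative median was shared by other strongly hybridising probes, and 105 of the members fell in the brightest 10% of probes. There the median over all 1640 probes was -0.30 and that over the members -0.34. The members were more uniform in sign: 2 of these 105 lay above 0, against 25.2% of all probes of that class. The arrays also carry probes for E1A spike-in control RNAs, and a shift by the 8 of them that were well above background was chosen as a second scale after the data were seen. The labels do not say how these RNAs were added, and this scale assumes equal amounts on every array. On it the member median was 0.02, with 64 probes above 0 and 62 below, 0 of 126 called (background 11.9%) and 121 within 0.5 log2 units of 0. All probes tested then had a median of 0.24 and the brightest 10% one of 0.03. The authors' own normalised table gave a member median of 0.04, quantile normalisation 0.01 and cyclic loess 0.04. The 95% interval lay within a 2-fold change for 119 of 126 probes on the spike-in scale and 122 of 126 in the authors' table.

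**Figure D1:**
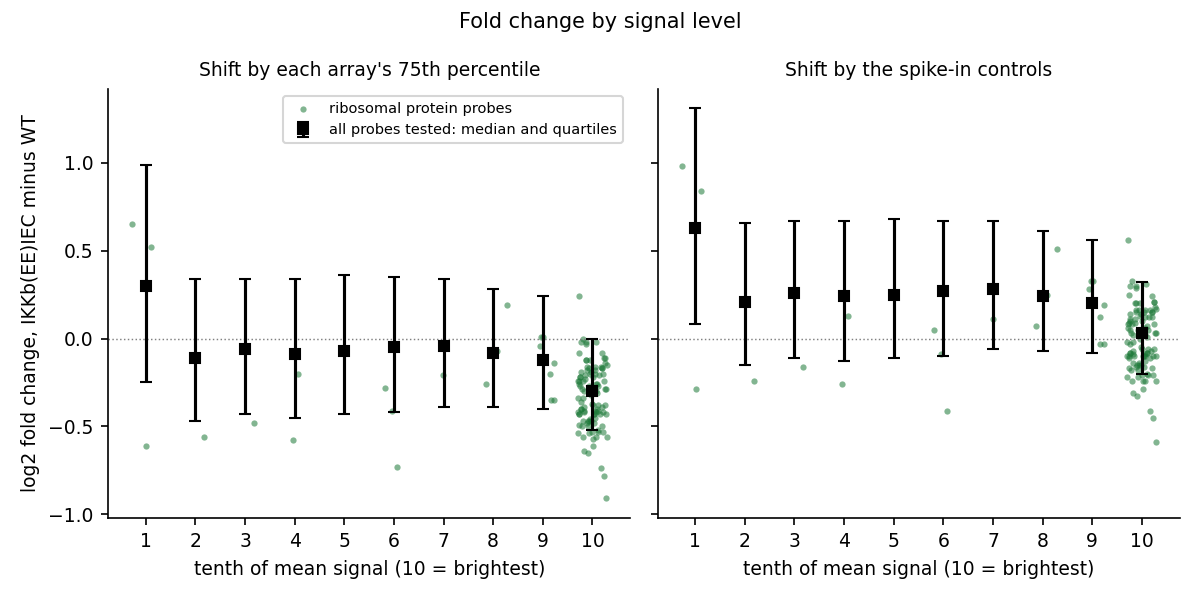
Log2 fold change (IKKb(EE)IEC minus WT) by mean signal, cut into 10 equal classes, with the 75th percentile shift on the left and the spike-in shift on the right. Green points are the 126 ribosomal protein probes, and black squares with bars are the median and quartiles of all probes in a class. On the left the brightest class lies at -0.30, and on the right at 0.03, with the members around it on both scales.

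Arrays of one genotype differed from each other for these transcripts about as much as the genotypes did. On the 75th percentile scale the median deviation of the members from their own mean was -0.31 and 0.00 in IKKb(EE)IEC, against -0.08 and 0.42 in WT. WT replicate 2 was above WT replicate 1 for 124 of 126 probes (median gap 0.51), and IKKb(EE)IEC replicate 2 above replicate 1 for 121 (median gap 0.29). On this scale the members thus moved together between samples of one genotype. This was not particular to them: mitochondrial ribosomal proteins rose likewise for 101 of 109 probes in WT and 96 in IKKb(EE)IEC (median gaps 0.35 and 0.18). With the spike-in shift the member gaps were smaller, at 0.23 in WT (108 probes above 0) and 0.16 in IKKb(EE)IEC (109 probes). On the spike-in scale the deviations were -0.08 and 0.10 in IKKb(EE)IEC, against -0.09 and 0.12 in WT, so that the genotypes overlapped. Both IKKb(EE)IEC arrays lay below both WT arrays for 56 probes (44.4%) on the 75th percentile scale, against 38.0% of all probes, and above both for 1 (29.9% of all). On the spike-in scale this held for 24 probes (19.0%), against 16.4% of all, and 13 (10.3%) lay above, against 47.9% of all. As a share of the summed signal of each array, the members took 15.8% and 17.6% in IKKb(EE)IEC and 13.6% and 16.2% in WT, which overlap.

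**Figure D2:**
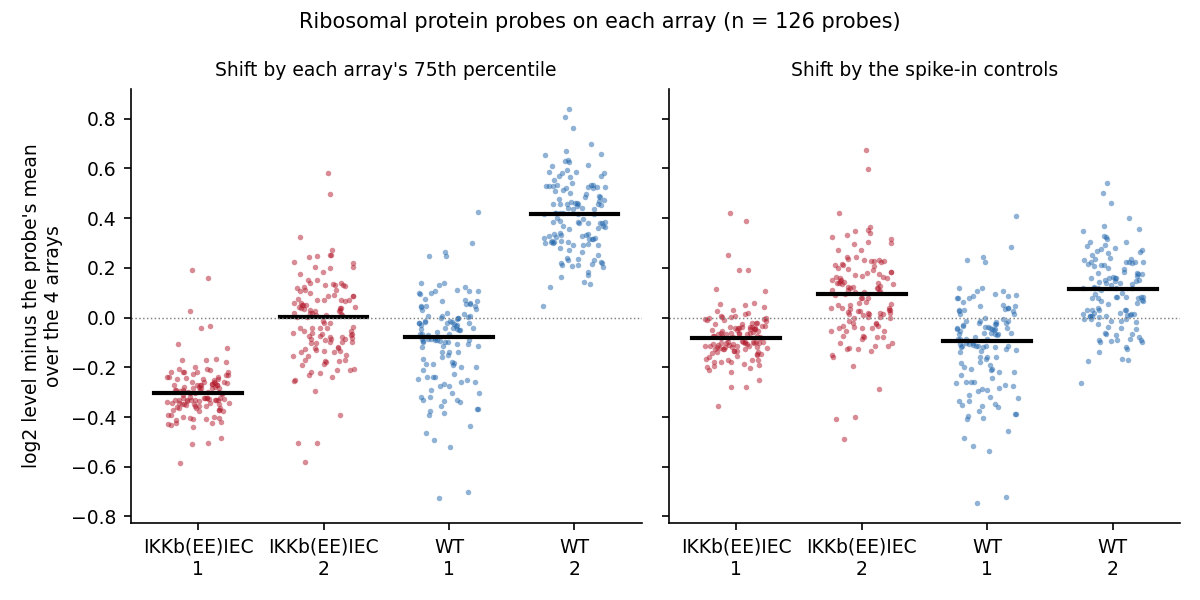
Deviation of each of the 126 ribosomal protein probes from its own mean over the 4 arrays (log2), by array, on both scales. Points are probes and black lines are medians, at -0.31, 0.00, -0.08 and 0.42 on the left and -0.08, 0.10, -0.09 and 0.12 on the right. WT replicate 2 is the high array on the left.

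One WT array decided the count of calls. Without WT replicate 1, 73 of 126 members were called lower (57.9%, with 25.7% of all probes called lower) and the median was -0.59. Without WT replicate 2, 4 were called lower (Rpl22l1, Rpl38, Rps25 and Rpsa) and 2 higher (Rpl21 and Rps13), where 16.6% of all probes were called in each direction, and the median was -0.11. Without IKKb(EE)IEC replicate 1 or 2, 0 were called (2.03% and 2.55% of all probes), and the medians were -0.17 and -0.47. On the spike-in scale, leaving out the arrays gave medians from -0.12 to 0.09. There, Rps13 was called higher and Rpl21 and Rpl27a lower without WT replicate 1 (36.4% of all probes called higher and 4.65% lower), and Rpl21, by its other probe, and Rps13 higher without WT replicate 2 (17.4% of all called higher). With the filter on all 4 arrays, 1 probe each of Rps25 and Rpl22l1 was called lower, where 10.2% of all probes were. In these fits the lone sample of a genotype is assumed to vary like the other pair.

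The large subunit, with its stalk proteins, was represented by 70 tested probes, of which 67 had a fold change below 0. Their median was -0.29 on the 75th percentile scale and 0.03 on the spike-in scale, and 0 were called on either. Rpl37a, a zinc-binding protein of the large subunit, had normalised levels of 11.28 and 11.47 in IKKb(EE)IEC, against 11.75 and 12.08 in WT (-0.54 ± 0.20, adjusted p = 0.113). Rpl41, a very short basic peptide, had 10.70 and 10.85 in IKKb(EE)IEC, against 11.01 and 11.46 in WT (-0.46 ± 0.22, adjusted p = 0.181). For both genes the arrays of the genotypes did not overlap on this scale, and on the spike-in scale the differences were -0.22 and -0.14. Under quantile normalisation the differences turned to 0.65 and 0.40 (limma adjusted p = 0.0548 and 0.137). Rpl38, which in mice is known for the translation of Hox transcripts, was singled out after its values were seen because its replicates were close. It had 10.42 and 10.54 in IKKb(EE)IEC, against 11.01 and 11.08 in WT (-0.56 ± 0.17, adjusted p = 0.078), and -0.24 on the spike-in scale.

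The acidic stalk, which recruits translation factors to the ribosome, has 3 proteins that were measured by 1 member probe each. Rplp1 had 11.19 and 11.47 in IKKb(EE)IEC, against 11.37 and 11.64 in WT (-0.18 ± 0.20, adjusted p = 0.548). Its groups overlapped, and in the authors' table its difference was 0.44 and passed (limma adjusted p = 0.0461), the reverse direction and the only member call there, where 8.37% of all probes were called higher. Rplp2 had 10.33 and 10.55 in IKKb(EE)IEC, against 10.59 and 10.89 in WT (-0.30 ± 0.20, adjusted p = 0.312). Rplp0, often used as a reference gene in PCR, had 3.39 and 3.94 in IKKb(EE)IEC, against 3.41 and 4.32 in WT (-0.20 ± 0.36, adjusted p = 0.709). Its probe was spotted 10 times per array, and the coefficient of variation between these spots was 2.97% and 2.37% in IKKb(EE)IEC and 4.56% and 2.43% in WT. The gap between samples of a genotype was thus far wider than that between spots. A pair of further Rplp0 probes carries the older name Arbp and so falls outside the rule. The brighter had 10.99 and 11.19 in IKKb(EE)IEC, against 11.17 and 11.81 in WT (-0.4 ± 0.26, limma adjusted p = 0.307). Its level thus lay near those of Rplp1 and Rplp2 and far above that of the member probe. The dimmer gave -0.22 ± 0.38 (limma adjusted p = 0.69). Their differences were -0.07 and 0.1 on the spike-in scale and 0.61 and -0.02 under quantile normalisation, and none passed.

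The small subunit had 48 tested probes, 46 of them with a fold change below 0, a median of -0.40 on the 75th percentile scale and of -0.08 on the spike-in scale, and 0 calls on either. Rps12 had 11.41 and 11.63 in IKKb(EE)IEC, against 11.89 and 12.20 in WT (-0.52 ± 0.20, adjusted p = 0.125). Rps18, which lies in the head of the subunit, had 11.43 and 11.50 in IKKb(EE)IEC, against 11.68 and 12.10 in WT by the probe at chr17:33562493-33562552, mm8 (-0.42 ± 0.21, adjusted p = 0.197). Under quantile normalisation the difference of this probe was 0.81 and passed (limma adjusted p = 0.0377, with 8.19% of all probes called higher), so its direction turned with the scale. This was not particular to Rps18. Under quantile normalisation Rps12 had 0.68 (limma adjusted p = 0.0504) and Rplp1 0.86 (limma adjusted p = 0.0531). Rps6, the substrate of the S6 kinases, had 5.42 and 5.87 in IKKb(EE)IEC, against 5.58 and 6.01 in WT (-0.15 ± 0.25, adjusted p = 0.682), and its groups overlapped. It was named after its values were seen, for its role.

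The smallest adjusted p of any member was that of a dim probe of Rps25, a protein known for internal ribosome entry, and it too was named after its values were seen. This probe (chr9:44161159-44161218, mm8) had 0.31 and 0.54 in IKKb(EE)IEC, against 1.04 and 1.28 in WT (-0.73 ± 0.19, adjusted p = 0.0584). The other Rps25 probe, upstream of it at chr9:44159758-44159817, had 9.40 and 9.61 in IKKb(EE)IEC, against 9.69 and 10.29 in WT (-0.48 ± 0.25, adjusted p = 0.218). On the spike-in scale the differences were -0.41 and -0.16. Rpsa, also the laminin receptor precursor, had 5.45 and 5.73 in IKKb(EE)IEC, against 5.74 and 6.09 in WT (-0.32 ± 0.21, adjusted p = 0.31). A second Rpsa probe was well above background on 1 array of either genotype only, so its values lie near the limit of measurement. It had -1.34 and -1.29 in IKKb(EE)IEC, against -0.61 and -0.90 in WT (-0.56 ± 0.19, adjusted p = 0.0948).

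The paralogs can replace or accompany their parent proteins in the ribosome of some tissues. Their 6 tested probes had a median of -0.20 on the 75th percentile scale, all below 0, and of 0.12 on the spike-in scale, 4 of 6 above 0, and 0 were called on either. Without WT replicate 1 the median was -0.59, and without WT replicate 2 it was 0.15. Rpl22l1 had 8.19 and 8.22 in IKKb(EE)IEC, against 8.57 and 8.78 in WT by the brighter probe (-0.47 ± 0.18, adjusted p = 0.12). Its parent Rpl22 had 9.02 and 9.22 in IKKb(EE)IEC, against 9.40 and 9.77 in WT by the brighter probe (-0.47 ± 0.21, adjusted p = 0.163). The brighter probes thus gave differences of the same size. The dimmer probes gave -0.61 ± 0.17 for Rpl22l1 (limma adjusted p = 0.0678) and -0.28 ± 0.20 for Rpl22 (limma adjusted p = 0.349), with errors that overlap. In the authors' table these were -0.15 and -0.11. The dimmer Rpl22l1 probe was in the lowest 10% of signal, near the limit of measurement. Rps27l, known as a target of p53, had 9.18 and 9.18 in IKKb(EE)IEC, against 9.08 and 9.44 in WT (-0.08 ± 0.20, adjusted p = 0.795). Its parent Rps27 had 10.18 and 10.46 in IKKb(EE)IEC, against 10.51 and 10.90 in WT (-0.38 ± 0.22, adjusted p = 0.25). On this scale the WT samples of Rps27l enclosed the IKKb(EE)IEC samples, and those of Rps27 lay above them. On the spike-in scale both IKKb(EE)IEC samples of Rps27l lay above both WT samples (0.25). In the authors' table the difference was 0.37 (limma adjusted p = 0.0562), so its direction turned with the scale. This was not particular to Rps27l. Rps27 had -0.06 on the spike-in scale and 0.12 in the authors' table, where 76 of 126 members lay above 0. Rpl36al and its parent Rpl36a, measured by 1 and 3 probes, had differences of -0.11 and from -0.27 to -0.19. Among tested probes, Rpl7l1 had the widest gap between samples of a genotype: its dimmer probe had -0.31 and -0.26 in IKKb(EE)IEC, against -0.65 and 0.47 in WT. The 2 Rpl7l1 probes differed between genotypes by -0.21 and -0.20, and the 3 probes of Rpl7 by -0.24 to -0.02. Next widest was a second Rps18 probe, with 8.56 and 8.88 in IKKb(EE)IEC, against 8.37 and 9.42 in WT. Rpl3, the parent of Rpl3l, had -0.16 ± 0.29 (adjusted p = 0.709). Rps19bp1, the binding partner of Rps19 that the rule takes in, had differences of 0.19 ± 0.25 and 0.01 ± 0.21 by its 2 probes, and neither passed.

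Several genes were measured more than once. In 36 genes with over 1 tested probe, the fold changes of a gene's probes spanned a median of 0.12 log2 units, and 31 genes spanned at most 0.25, close to or under 1 standard error. In 5 genes the probes differed in sign (Rpl21, Rpl29, Rpl6, Rps13 and Rps2), each with 1 probe at or above 0. One Rpl21 probe had 5.74 and 5.49 in IKKb(EE)IEC, against 6.14 and 6.91 in WT (-0.91 ± 0.29, adjusted p = 0.089), the lowest fold change of all members. The other, with signals of 32.0 and 39.8 in IKKb(EE)IEC against 10.7 and 22.5 in WT, did not stand clear of background in WT, and the bound on its fold was below 1, so no fold is given. For Rps13 the bright probe had 10.29 and 10.48 in IKKb(EE)IEC, against 10.57 and 11.05 in WT (-0.43 ± 0.22, adjusted p = 0.22). A dim Rps13 probe passed the signal filter through the IKKb(EE)IEC arrays alone and was not called (limma adjusted p = 0.167). The bound on its fold, from the lowest well-measured signal of each WT array, was 1.21 and carries no error. In the authors' table its difference was 0.21 (limma adjusted p = 0.229). Rps2 had differences of -0.16 and 0.24, Rpl6 of -0.24 and 0.00, and the 4 probes of Rpl29 lay from -0.20 to 0.01. None of these passed. Over the 123 members measured above background on every array, the fold changes ran from -0.91 to 0.24.

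**Figure D3:**
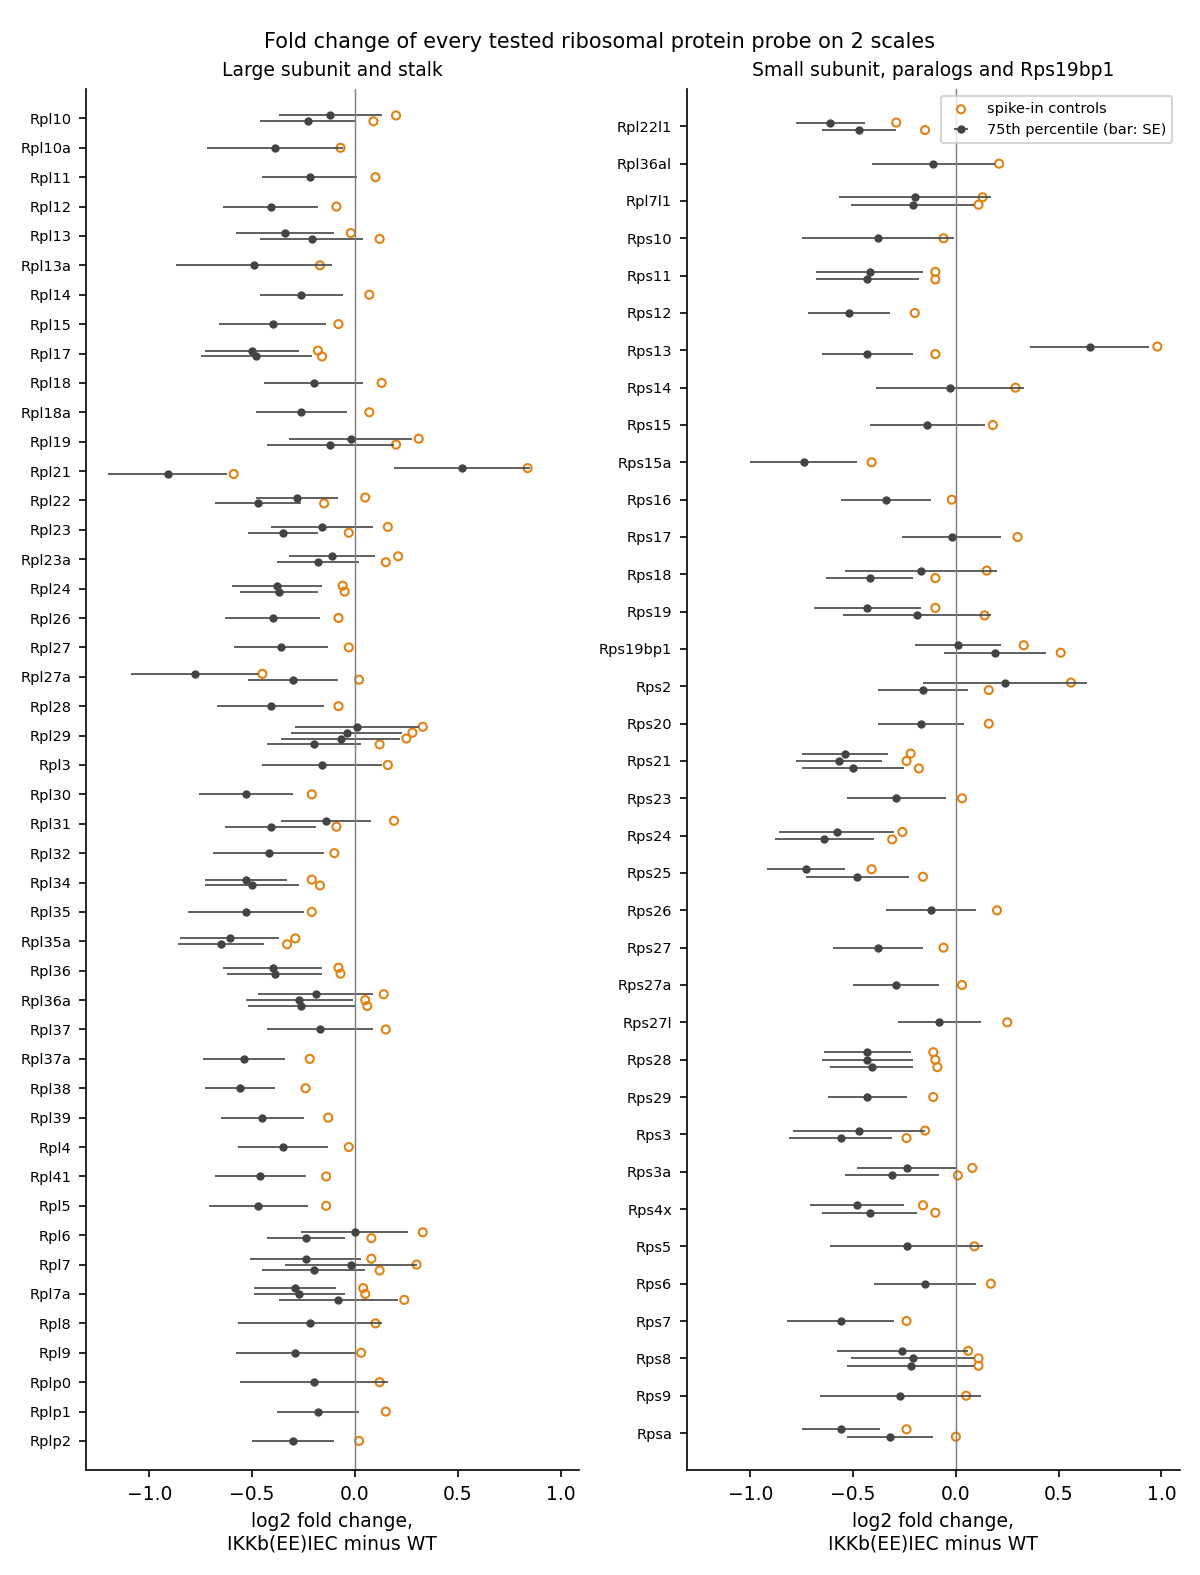
Log2 fold change (IKKb(EE)IEC minus WT) of each of the 126 probes, in a row per gene, with the large subunit and stalk on the left and the remaining members on the right. Filled points with bars (SE) use the 75th percentile shift and open circles the spike-in shift. Filled points gather left of 0 and open circles around 0, and the rightmost probes of Rpl21 and Rps13 were not well above background in WT.

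Genes that make or regulate ribosomes were set beside the members, as lists chosen with earlier results of these data known. Of 47 tested probes of ribosome biogenesis genes, 7 were called higher (14.9%, with 8.17% of all probes called higher) and 0 lower, with a median of 0.26 and, on the spike-in scale, 0.58. This count includes probes that passed the signal filter through the IKKb(EE)IEC arrays alone. With the filter on all 4 arrays, 34 probes were left, with a median of 0.14 and 6 called higher (17.6%). Under that filter all probes had a median of -0.15, with 7.39% called higher. Ncl, the nucleolar protein nucleolin, had 1.89 and 1.95 in IKKb(EE)IEC, against 0.97 and 1.04 in WT (0.92 ± 0.17, adjusted p = 0.0272), and a second probe gave 0.89. The genotypes did not overlap for it. Polr1a, the largest subunit of RNA polymerase I, Wdr43 and Bysl, both pre-ribosome processing factors, were not well above background in WT. They were at least 2.38-fold (adjusted p = 0.039), 1.1-fold (adjusted p = 0.0358) and 1.14-fold higher in IKKb(EE)IEC (adjusted p = 0.0371). The p-values belong to the measured values and not to these bounds. In the authors' table these genes had 0.41, 0.37 and 0.29 and did not pass (limma adjusted p = 0.0805, 0.0547 and 0.0857). Ncl passed there (0.67, limma adjusted p = 0.0139). The calls of all 4 named genes were lost without either IKKb(EE)IEC replicate, with limma adjusted p-values from 0.174 (Polr1a) to 0.266 (Ncl), while the fold change of Ncl was 0.95 and 0.89. In those fits 1.41% and 1.79% of all probes were called higher.

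Mitochondrial ribosomal proteins, which form the separate ribosome of the mitochondrion, gave 0 calls among 109 tested probes and a median of -0.22 (spike-in scale 0.10). Of all probes tested, 8.17% were called higher and 5.83% lower. The smallest p-values of the mitochondrial list were those of Mrps17 (-0.74) and Mrps36 (-0.64). Translation factors and other TOP transcripts had a median of -0.17 over 58 probes (spike-in scale 0.15), with 1.72% called higher and 3.45% lower. Among them Pabpc1, the poly(A)-binding protein, rose, with 8.47 and 8.41 in IKKb(EE)IEC, against 7.76 and 7.38 in WT (0.87 ± 0.20, adjusted p = 0.0463). Eif4a2, a helicase of translation initiation, was called lower by both of its probes (-0.78 ± 0.17, adjusted p = 0.0436, and -0.72 ± 0.17, adjusted p = 0.0488), and neither passed on the spike-in scale (adjusted p = 0.26 and 0.305). Of 20 tested probes of the S6 kinase and mTOR list, 3 were called higher and 0 lower. Larp1, which binds TOP tracts, had 1.47 and 1.30 in IKKb(EE)IEC, against 0.42 and -0.45 in WT (1.40 ± 0.31, adjusted p = 0.0426). Eif4ebp2, a repressor of cap-dependent translation, had 2.27 and 2.07 in IKKb(EE)IEC, against 1.29 and 0.90 in WT (1.08 ± 0.21, adjusted p = 0.0326). Rps6kl1, a kinase-like gene that the member rule leaves out, was not well above background in WT and was at least 52.7-fold higher in IKKb(EE)IEC (adjusted p = 0.000752). The calls of Pabpc1, Eif4a2, Larp1 and Eif4ebp2 were lost without either IKKb(EE)IEC replicate (limma adjusted p from 0.182 to 0.354), with fold changes of similar size (Pabpc1 0.84 and 0.90, Larp1 1.31 and 1.48), and that of Rps6kl1 was kept.

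**Figure D4:**
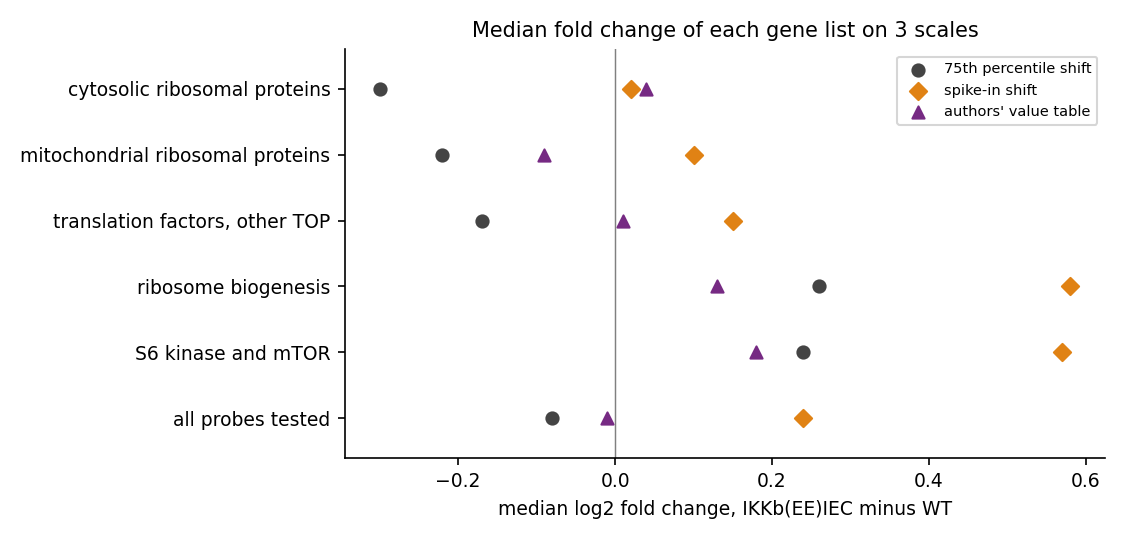
Median log2 fold change (IKKb(EE)IEC minus WT) of the tested probes of each list on the 75th percentile scale (circles), the spike-in scale (diamonds) and in the authors' table (triangles). Cytosolic ribosomal proteins lie at -0.30, 0.02 and 0.04, and ribosome biogenesis genes at 0.26, 0.58 and 0.13.

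**Figure D5:**
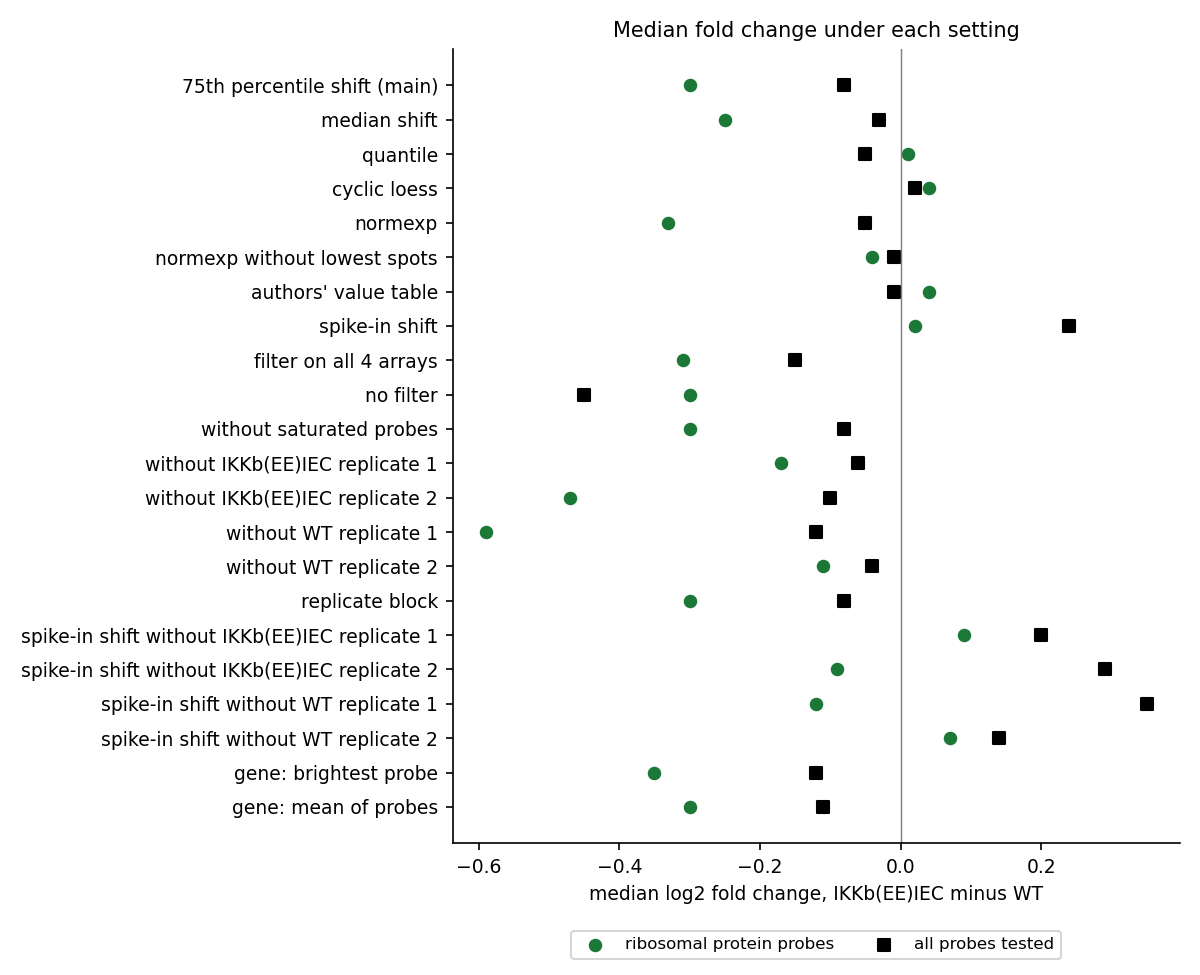
Median log2 fold change (IKKb(EE)IEC minus WT) of the ribosomal protein probes (green circles) and of all probes tested (black squares) under each setting. The members run from -0.59 without WT replicate 1 to 0.09 with the spike-in shift without IKKb(EE)IEC replicate 1.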

How the data were processed

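Cy3-labelled cRNA from 250 ng of total RNA was hybridised to Agilent arrays (design 014868), per the labels' protocols. The deposited intensity files come from Feature Extraction 9.5.3.1 and, per the file headers, hold background-subtracted, detrended processed signals, mean signals and local backgrounds, with no normalization between arrays. Their other columns are deposited flags and annotation. The authors' value table of linear intensities was already brought to a common level: its column medians were 111.5 to 112, and its columns followed the spot signals with a Spearman correlation of 0.996 to 0.997. No label or header states how. Groups and replicate numbers come from the sample titles.

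Processed intensities were converted to log2 here (the deposited values are linear), scaled to the 75th percentile of the 43379 non-control spots of an array, and averaged over the spots of a probe. Control spots and non-uniformity outliers were left out, and probes well above background on at least 2 of 4 arrays were tested per probe with lmFit and eBayes of limma 3.58.1 under R 4.3.3, with two-sided p-values adjusted by Benjamini-Hochberg over 16394 probes and called below 0.05. The prior had 3.61 degrees of freedom. Arrays give no counts, so the number of arrays limits the precision. A simulation of 200 changed probes gave 4 false calls. Probe coordinates are those of the files (mm8), 117 member accessions matched the RefSeq table. Members and lists were chosen with earlier results of these data known. Named genes are Ikbkb, called members, the 5 members of highest signal, stalk proteins and Rpsa, paralogs with their parents, genes with probes of opposite sign, the widest replicate gaps, and up to 4 called probes per list (or the 2 of smallest p). Genes outside the rule are said to be named after their values were seen. Same-numbered samples correlated at 0.112 in their deviations over 2 pairs only, so the numbers were not taken to pair samples. Other scalings, background corrections, filters, gene-level summaries and leave-one-out fits were tried.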

Additional observations from a re-analysis of the deposited data

How the results depend on the processing

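With 2 arrays per genotype on 1 slide, precision rests on the spread between single samples, and dim probes lie close to the background. The spike-in shift, its leave-one-out fits, the share of summed signal and a refitted normexp were chosen after seeing the data. The spike-in shift first used the mean over the controls and then their median, because 1 control moved unlike the others. Normexp on all spots estimated a background of -373 on IKKb(EE)IEC replicate 2 and -104 on WT replicate 1. It called 0 probes in limma, with 214 below an unadjusted p of 0.05. The refit left out the lowest 0.1% of spots and gave backgrounds of 40.1 to 48.8. Replicate numbers were not taken to pair the samples, and with the replicate block 0 members were called and their median was -0.30. The block gave 1497 higher and 921 lower calls over all probes.

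Member probes called higher (0) became 1 with quantile normalisation (Rps18, 0.81) and with the authors' table (Rplp1, 0.44), both the reverse of the reported sign. With the filter on all 4 arrays 2 were called lower (10.2% of all probes). Leaving out arrays gave 0 to 2 higher and 0 to 73 lower, and on the spike-in scale up to 2 higher without WT replicate 2, and 1 higher and 2 lower without WT replicate 1. The member median (-0.30) became 0.01 with quantile normalisation, 0.04 with cyclic loess and the authors' table, 0.02 with the spike-in shift and -0.04 with the refitted normexp. It ran from -0.59 to -0.11 with arrays left out, and on the spike-in scale was 0.09 and -0.09 without IKKb(EE)IEC replicates 1 and 2, and -0.12 and 0.07 without WT replicates 1 and 2. For the large subunit (-0.29) it became 0.01 with quantile normalisation, 0.03 with cyclic loess, the authors' table and the spike-in shift and 0.00 with the refitted normexp (-0.52 to -0.10 with arrays left out). For the small subunit (-0.40) it became 0.00, 0.04, 0.05 and -0.08 with quantile normalisation, cyclic loess, the authors' table and the spike-in shift, and -0.09 with the refitted normexp (-0.64 to -0.12 with arrays left out).

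All probes called higher (1340) became 0 with normexp and 754 with no filter (232 to 3643 with arrays left out). Those called lower (955) became 614 with cyclic loess, 0 with normexp, 251 with the spike-in shift and 421 with no filter (101 to 4220 with arrays left out). Their median (-0.08) became -0.03 with the array median, 0.02 with cyclic loess, -0.01 with the refitted normexp and the authors' table, 0.24 with the spike-in shift, -0.15 with the filter on all 4 arrays, -0.45 with no filter and -0.12 with each gene's brightest probe (-0.12 to -0.04 with arrays left out). The cause of these moves was not tested.

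Translation factors called higher (1) became 0 with normexp, 4 with the refitted normexp and 2 with the authors' table and the filter on all 4 arrays (0 to 7 with arrays left out). Those called lower (2) became 0 with the array median, quantile normalisation, cyclic loess, normexp, the spike-in shift and no filter, and 1 with the refitted normexp, the replicate block and either gene-level summary (0 to 15 with arrays left out). Their median (-0.17) became 0.00 with cyclic loess, -0.02 with the refitted normexp, 0.01 with the authors' table and 0.15 with the spike-in shift (-0.38 to -0.09 with arrays left out). Biogenesis probes called higher (7) became 0 with normexp, 1 with no filter and 4 with either gene-level summary (0 to 17 with arrays left out), and 0 to 5 were called lower with arrays left out. Their median (0.26) became 0.07 with normexp, 0.13 with the authors' table and 0.58 with the spike-in shift (0.08 to 0.36 with arrays left out). Mitochondrial ribosomal proteins called higher (0) became 1 with cyclic loess, the refitted normexp, the authors' table and the filter on all 4 arrays (0 to 1 with arrays left out). Those called lower (0) became 3 with the authors' table and the filter on all 4 arrays and 2 with the replicate block (0 to 38 with arrays left out). Their median (-0.22) became -0.01 with the refitted normexp and 0.10 with the spike-in shift (-0.36 to -0.07 with arrays left out). S6 kinase and mTOR probes called higher (3) became 5 with the array median and the replicate block, 0 with normexp, 6 with the refitted normexp and 1 with no filter (1 to 7 with arrays left out). Those called lower (0) became 1 with the authors' table, the filter on all 4 arrays and no filter (0 to 2 with arrays left out). Their median (0.24) became 0.30 with the array median, 0.32 with cyclic loess, 0.11 with normexp, 0.16 with the refitted normexp, 0.18 with the authors' table and the filter on all 4 arrays, 0.57 with the spike-in shift, -0.10 with no filter and 0.27 with either gene-level summary (0.21 to 0.27 with arrays left out).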
